A study of Homo sapiens with 18 samples.

Results

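The ephrins, Eph receptors, semaphorins, plexins, neuropilins, Slits, Robo receptors, netrins and UNC5 receptors steer growing axons and migrating cells. They were read here in RNA-seq of human pluripotent stem cells (PSCs) with and without PCGF6, a Polycomb protein that assembles the repressive PRC1.6 complex. Members were taken by gene symbol from the table of counts per gene, which gave 68 genes in 9 families out of 57133 genes. The rule reads symbols and no expression values, although the families were picked with earlier results of these data known. The cells were PGP1, an established human induced PSC line grown in mTeSR1 medium on Matrigel, and the groups were the unedited line, called WT, and 2 knockout lines, called PCGF6-KO clone 1 and clone 2, each with 2 libraries. Each knockout line is 1 clone grown from a sorted cell after CRISPR-Cas9 cutting in the first exon of PCGF6 on both alleles, and the clones carry different deletions, so a change shared by the libraries of a clone can belong to that clone. The labels do not say whether libraries of a group came from separate cultures. The comparison of PCGF6-KO with WT treated the 4 PCGF6-KO libraries as replicates although they came from 2 clones. The spread behind its p-values therefore also holds the difference between the clones. For each clone against WT, and for clone 2 against clone 1, p-values measure only the spread between libraries of a group.

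Guidance cues act as attractants or repellents that a growth cone reads through cell-surface receptors. Ephrins stay on the membrane and signal to Eph receptor tyrosine kinases on the neighbouring cell, semaphorins signal through plexins with neuropilins as co-receptors of the secreted class, Slits through Robo receptors, and netrins through DCC and the UNC5 receptors. The same genes act outside the nervous system, where they sort cells at somite and other tissue borders, guide blood vessels and the heart outflow tract, and steer migrating mesoderm and neural crest.

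Guidance genes changed in both directions in PCGF6-KO, and every family but the Robo receptors had a called member. Of the 68 members, 64 had enough counts to be tested, of which 25 were called higher, 14 lower and 25 were not called. Called means an edgeR adjusted p under 0.05 with an absolute log2 fold change over 0.6 between the 4 PCGF6-KO and the 2 WT libraries. The 39 calls were 60.9% of the tested members, where 23.6% of the 17672 genes tested were called, 14.9% higher and 8.7% lower. The members had a median log2 fold change of 0.32 and all tested genes one of 0.00, and the median size of the change regardless of sign was 1.12 against 0.32. No PCGF6-KO library overlapped WT in CPM, the count scaled to the size of the library by TMM, for 49 members, 76.6% of those tested, against 57.1% of all tested genes. Eph receptors had 11 of 13 tested members called, 6 higher and 5 lower, ephrins 4 of 8, all higher, and semaphorins 12 of 20, 6 in each direction. Among the 9 plexins 3 were higher and 1 lower, both neuropilins and 2 of 3 Slits were higher, 1 of 4 UNC5 receptors was higher and 2 lower, and 1 of 2 tested netrins was higher. Counting ligands and receptors apart, 13 of 33 tested ligands were higher and 6 lower, and 12 of 31 tested receptors were higher and 8 lower. The members that did not reach the filter were EPHA5, NTN3, NTN5 and ROBO4, none with more than 10 counts in a library. EPHA10 and UNC5A, both lower, had under 10 counts in every PCGF6-KO library and were tested through their WT counts.

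**Figure D1:**
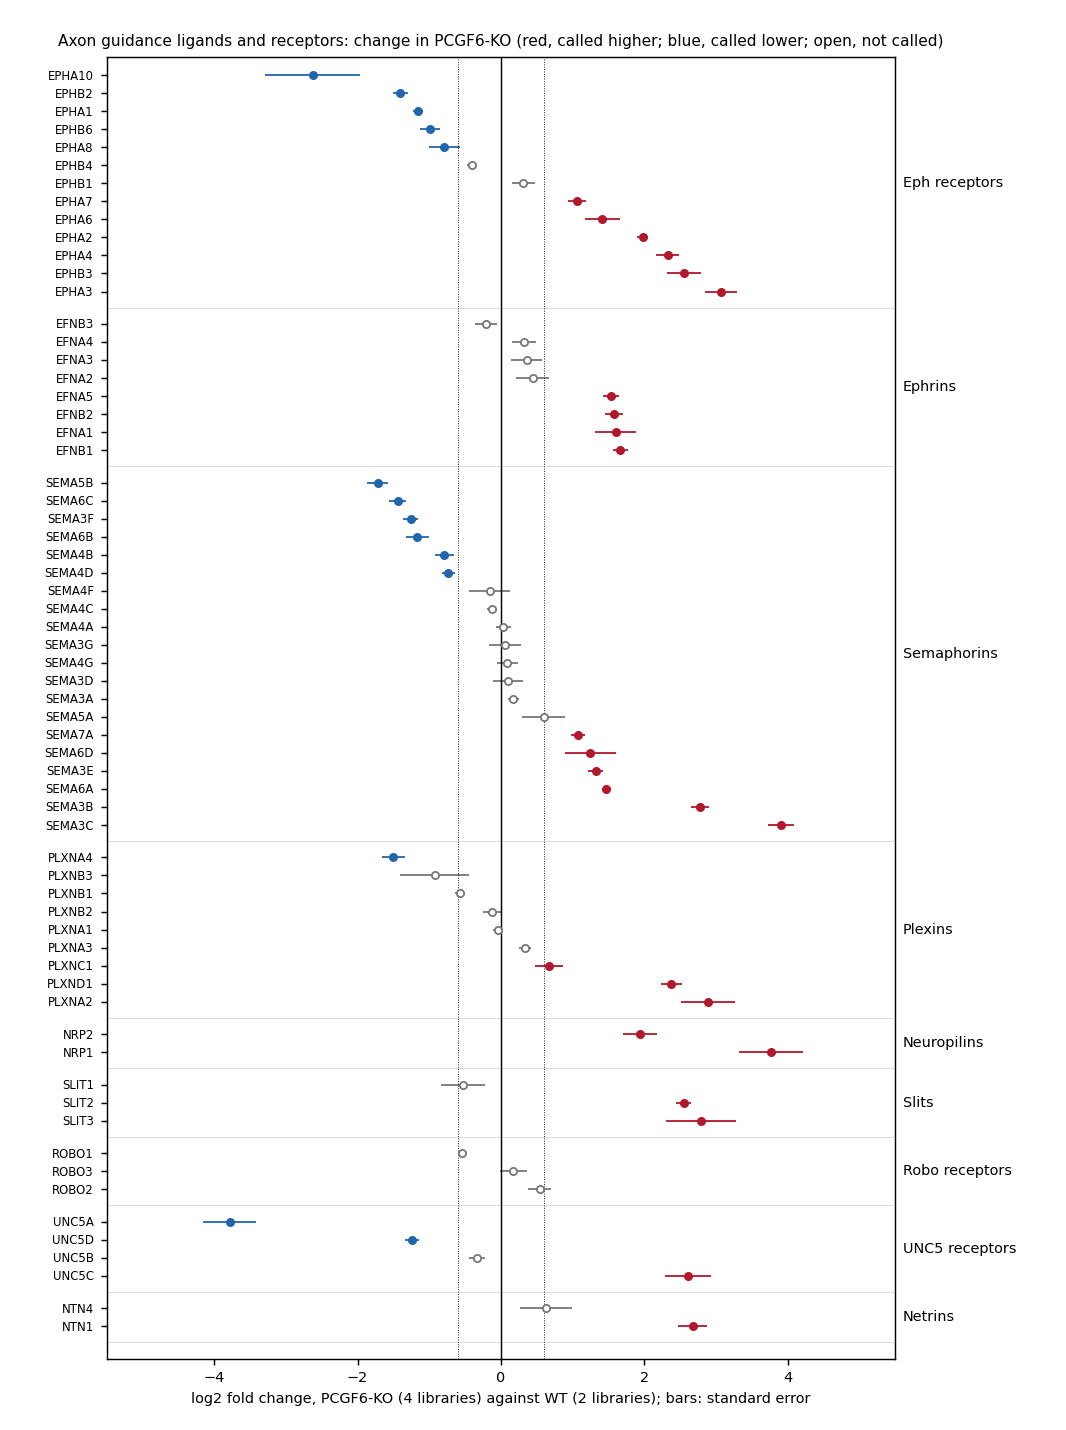
Log2 fold change of PCGF6-KO (4 libraries) against WT (2 libraries) for the 64 tested members, by family, with the standard error as bars. Filled red points are called higher, filled blue points called lower and open points not called, and dotted lines mark a log2 fold change of 0.6 in either direction. The range runs from −3.78 for UNC5A to 3.91 for SEMA3C.

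The libraries held between 15877396 and 18918609 counts, and the 68 members took 0.327 to 0.334% of the counts in WT and 0.472 to 0.500% in PCGF6-KO. Without SEMA6A, the member with the most counts, they took 0.254 to 0.262% in WT and 0.289 to 0.293% in PCGF6-KO. PCGF6 itself had 268 and 300 counts in the WT libraries, 99 and 103 in those of clone 1 and 187 and 159 in those of clone 2 (log2 fold change −1.15, edgeR adjusted p = 0.00914). Counts over the whole gene include exons outside the edited one, so they do not measure the protein. The pluripotency markers summed to 8149 to 8539 CPM in WT and 6534 to 6817 CPM in PCGF6-KO, and 2 of 10 were called, both lower, SOX2 and TERF1. Markers of other cell types were called as well. Of 10 mesendoderm markers, 9 were tested and all 9 called higher (6.77 to 7.37 CPM in WT and 660.1 to 832 CPM in PCGF6-KO), and 7 of 8 fibroblast markers were higher and 1 lower (850.5 to 863 CPM in WT and 1752 to 2074 CPM in PCGF6-KO). Of 8 neural crest markers 6 were higher and 1 lower (115 to 117 CPM in WT and 112 to 156 CPM in PCGF6-KO). Of 8 endothelial markers 2 were higher and 3 lower (209 to 214 CPM in WT and 518 to 555 CPM in PCGF6-KO). Of 8 tested neural markers 2 were higher and 1 lower (312 to 357 CPM in WT and 632 to 748 CPM in PCGF6-KO). Summed CPM leans on the most abundant markers of a list. The median log2 fold change was 5.1 for neural crest, −0.45 for endothelial and 0.79 for neural markers. The endothelial marker KDR had 2435 and 2491 counts in WT and 7840 to 9020 in PCGF6-KO. The neural marker NES had 4508 and 5381 in WT and 9987 to 12859 in PCGF6-KO. The neural crest marker ETS1, not called, had 1617 and 1717 in WT and 1184 to 1463 in PCGF6-KO. The fibroblast markers LUM and DCN, the endoderm marker SOX17 and the neural crest marker TFAP2B were at 0 in both WT libraries, and no marker was at 0 in every library. Their part in the changes of the guidance genes was not tested, and in bulk RNA a change in the share of a cell type cannot be told apart from a change in RNA per cell.

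Across the 68 members, 57 reached at least 1 TPM (a library-scaled level that also corrects for the deposited gene length) in each WT library, and 59 to 62 did so in the PCGF6-KO libraries. SEMA6A, a transmembrane semaphorin that binds PLXNA2 and PLXNA4, was the most abundant member in all 6 libraries. It had 289 and 287 TPM in the WT libraries, 812 and 807 in those of clone 1 and 698 and 719 in those of clone 2. Next in WT was EPHA1, an ephrin-A receptor, with 187 and 188 TPM in the WT libraries, 89.0 and 83.7 in those of clone 1 and 75.0 and 72.1 in those of clone 2. These 2 moved apart, since each PCGF6-KO library lay above WT for SEMA6A and below WT for EPHA1. EPHB4, the ephrin-B2 receptor known from veins, had 150.4 and 161 TPM in the WT libraries, 116 and 107 in those of clone 1 and 111 and 116 in those of clone 2. PLXNB2, a plexin for class 4 semaphorins, had 106 and 112 TPM in the WT libraries, 114 and 109 in those of clone 1 and 81.9 and 78.5 in those of clone 2. ROBO1, the main Slit receptor, had 101 and 103 TPM in the WT libraries, 67.8 and 66.6 in those of clone 1 and 64.2 and 68.7 in those of clone 2. None of EPHB4 (log2 fold change −0.40), PLXNB2 (−0.12) and ROBO1 (−0.54) was called. In WT, the levels of PLXNB2 and ROBO1 differed by little more than the gap between the libraries of PLXNB2.

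Eph receptors fall into an A class, which mostly binds the lipid-anchored ephrin-A ligands, and a B class, which mostly binds the transmembrane ephrin-B ligands. In PCGF6-KO the leading Eph receptor by TPM was EPHA2 in place of EPHA1. EPHA2 (chromosome 1, 16124337 to 16156069 on GRCh38), a receptor of epithelial cells that binds EFNA1, had 52.7 to 52.8 TPM in WT and 192 to 199.7 TPM in PCGF6-KO (log2 fold change 1.97, standard error 0.07, edgeR adjusted p = 2.5e-07). EPHA1 went the other way (log2 fold change −1.16, standard error 0.07, edgeR adjusted p = 4.3e-06). The summed level of the family was 447 to 464 TPM in WT and 467 to 476 TPM in PCGF6-KO. EPHA2 made up 11.4 to 11.8% of it in WT and 40.4 to 42.8% in PCGF6-KO, while EPHA1 made up 40.5 to 41.9% in WT and 15.2 to 18.7% in PCGF6-KO.

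The largest Eph increases were in receptors that WT cells expressed at low levels. EPHA3 had 1.04 and 0.959 CPM in the WT libraries, 7.48 and 8.91 in those of clone 1 and 7.61 and 9.72 in those of clone 2 (log2 fold change 3.06, standard error 0.22, edgeR adjusted p = 1.2e-05). EPHB3 had 1.54 and 1.62 CPM in the WT libraries, 8.58 and 8.31 in those of clone 1 and 8.44 and 11.8 in those of clone 2 (log2 fold change 2.55, standard error 0.23, edgeR adjusted p = 4.5e-05). Both were several times higher in every PCGF6-KO library. EPHA4, which binds ephrins of both classes and acts at rhombomere and somite borders, had 8.66 and 9.47 CPM in the WT libraries, 39.6 and 39.7 in those of clone 1 and 48.5 and 54.0 in those of clone 2 (log2 fold change 2.32, standard error 0.16, edgeR adjusted p = 8.4e-06). EPHA6 and EPHA7 were also higher, with log2 fold changes of 1.41 and 1.06. The lower receptors included EPHA10 and EPHB6, the family members without kinase activity. EPHA10 had 16 and 22 counts in the WT libraries, 8 and 2 in those of clone 1 and 3 and 0 in those of clone 2 (log2 fold change −2.63, standard error 0.66, edgeR adjusted p = 0.0130). Its call rested on both WT libraries, and the adjusted p was 0.0594 without the first and 0.119 without the second. EPHB6 had a log2 fold change of −0.99 and EPHB2, a receptor for ephrin-B ligands, one of −1.40. EPHA8, which lies 0.107 Mb from EPHB2 on chromosome 1, had a log2 fold change of −0.79 (edgeR adjusted p = 0.0172), and its adjusted p was 0.0507 and 0.170 without either WT library. EPHB1, the other tested member besides EPHB4 without a call, was not called (log2 fold change 0.31).

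Ephrins rose or were not called, and no ephrin was called lower. EFNB1 had 9.76 and 11.4 CPM in the WT libraries, 34.0 and 35.9 in those of clone 1 and 31.4 and 33.1 in those of clone 2 (log2 fold change 1.66, standard error 0.11, edgeR adjusted p = 5.8e-06). EFNB2, the EPHB4 ligand known from arteries and from somite borders, had 22 and 22.9 CPM in the WT libraries, 56.7 and 63.9 in those of clone 1 and 72.6 and 74.8 in those of clone 2 (log2 fold change 1.58, standard error 0.12, edgeR adjusted p = 1.9e-05). EFNA5 had 10.7 and 11.6 CPM in the WT libraries, 28.5 and 33.1 in those of clone 1 and 31.9 and 35.2 in those of clone 2 (log2 fold change 1.53, standard error 0.11, edgeR adjusted p = 1.4e-05). All 3 were 2.89 to 3.17 times higher, and the PCGF6-KO libraries stayed clear of WT. EFNA1 had 2.46 and 2.22 CPM in the WT libraries, 6.17 and 5.01 in those of clone 1 and 9.32 and 7.92 in those of clone 2 (log2 fold change 1.6, standard error 0.28, edgeR adjusted p = 0.00221). It was higher in clone 2 than in clone 1 (log2 difference 0.63, edgeR adjusted p = 0.00886). Its neighbours on chromosome 1, EFNA3, 40.3 kb away, and EFNA4, 9.28 kb beyond EFNA3, were not called, with log2 fold changes of 0.36 and 0.33, nor were EFNA2 (0.44) and EFNB3 (−0.21). By TPM the leading ephrin was EFNB3 in the WT libraries and EFNB2 in all 4 PCGF6-KO libraries. In GENCODE, 43.9% of the exonic bases of EFNA3 and 36.4% of those of EFNB2 also belong to another gene, so reads there could be shared. The same holds for 28.05% of those of SEMA4G and 20.4% of those of PLXNB3, and these 4 were the members over 20%.

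**Figure D2:**
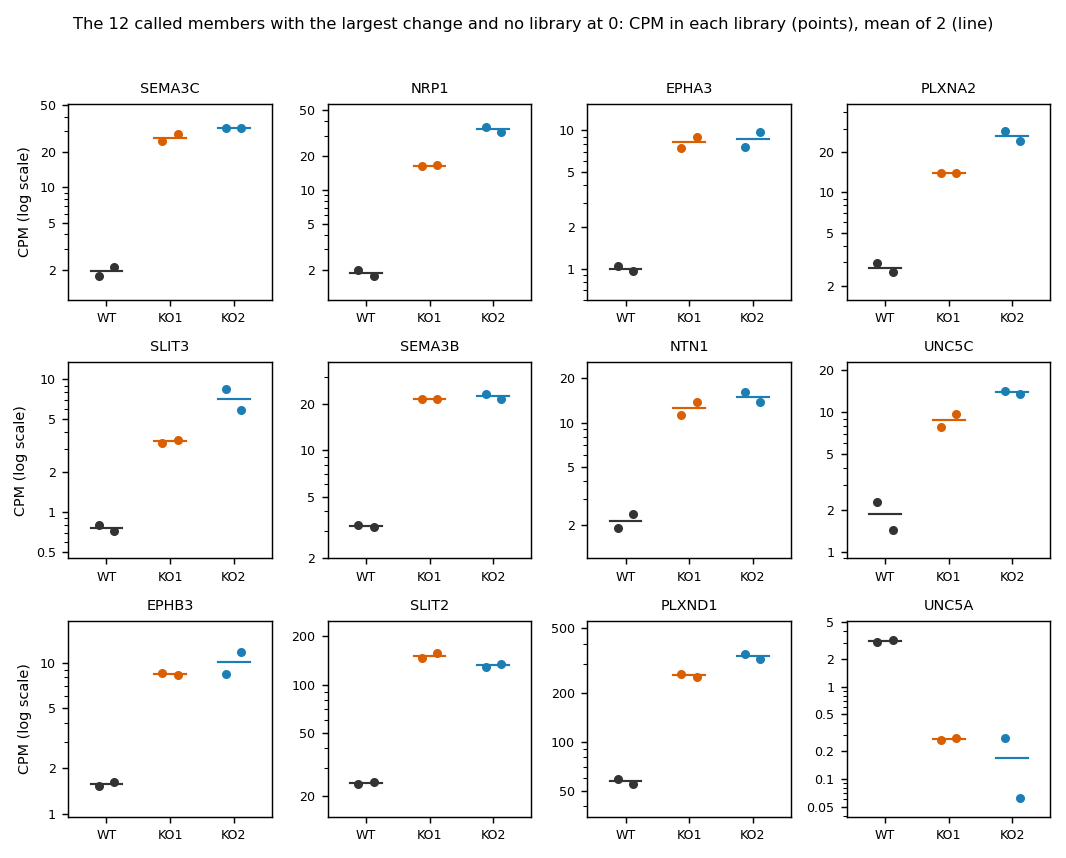
CPM (log scale) of the 12 called members with the largest change and at least 1 count in every library, in WT, PCGF6-KO clone 1 (KO1) and PCGF6-KO clone 2 (KO2). Points are libraries and lines are the mean of 2. For 11 of them the PCGF6-KO points lie above WT, and for UNC5A below.

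Class 3 semaphorins are secreted and include genes that rose, fell or did not pass the test. SEMA3C had the largest log2 fold change of the members in PCGF6-KO as a whole, while in clone 2 alone NRP1 (4.2) stood above it (4.04). SEMA3C (chromosome 7, 80742538 to 80922359 on GRCh38), which guides neural crest into the heart outflow tract, had 1.78 and 2.1 CPM in the WT libraries, 24.6 and 28.2 in those of clone 1 and 32.1 and 32.2 in those of clone 2 (log2 fold change 3.91, standard error 0.18, edgeR adjusted p = 8.7e-07). SEMA3B had 3.25 and 3.18 CPM in the WT libraries, 21.6 and 21.6 in those of clone 1 and 23.3 and 21.4 in those of clone 2 (log2 fold change 2.77, standard error 0.12, edgeR adjusted p = 6.8e-07). Both were low in WT and clear of it in every PCGF6-KO library. SEMA3E, the ligand that binds PLXND1 without a neuropilin, was higher as well (log2 fold change 1.32), and SEMA3F, the NRP2 ligand, was lower (−1.26). SEMA3F and SEMA3B lie 78.5 kb apart on chromosome 3, at 50155045 to 50189075 and 50267558 to 50277546 (GRCh38), and were called in opposite directions. On chromosome 7, SEMA3E and SEMA3A lie 0.307 Mb apart and SEMA3A and SEMA3D 0.503 Mb apart, and of these SEMA3A, the classic growth cone repellent (log2 fold change 0.17, edgeR adjusted p = 0.118), and SEMA3D (0.09, edgeR adjusted p = 0.757) were not called. SEMA3G was not called either (0.05).

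The membrane-bound semaphorins moved in both directions. SEMA6A rose (log2 fold change 1.47, standard error 0.07, edgeR adjusted p = 6.9e-07), with 11604 and 11765 counts in the WT libraries, 39194 and 36559 in those of clone 1 and 33861 and 30631 in those of clone 2, and made up 40.3 to 41.0% of the summed semaphorin TPM in WT and 65.1 to 65.9% in PCGF6-KO. SEMA6A-AS1, its antisense neighbour, had 115 and 114 counts in WT and 359 to 439 in PCGF6-KO (log2 fold change 1.69), and 2.99% of the exonic bases of SEMA6A overlap an antisense gene. Whether reads were counted by strand is not given in the sources used here, so reads of SEMA6A and SEMA6A-AS1 cannot be told apart there. SEMA6C and SEMA6B fell (log2 fold changes −1.44 and −1.17). SEMA6D, a PLXNA1 ligand, had 4.11 and 5.39 CPM in the WT libraries, 7.64 and 7.37 in those of clone 1 and 16.0 and 14.2 in those of clone 2 (log2 fold change 1.25, standard error 0.36, edgeR adjusted p = 0.0241). Its adjusted p was 0.174 and 0.0852 without either WT library and 0.0529 when a replicate block was added. SEMA5B fell, with 15.7 and 14.2 CPM in the WT libraries, 5.07 and 4.29 in those of clone 1 and 4.74 and 3.99 in those of clone 2 (log2 fold change −1.72, standard error 0.14, edgeR adjusted p = 2.8e-05), and SEMA5A was not called in PCGF6-KO as a whole (0.59). In class 4, SEMA4B (log2 fold change −0.79) and SEMA4D (−0.73), the PLXNB1 ligand, fell, and SEMA4A (0.03), SEMA4C (−0.13), SEMA4F (−0.16) and SEMA4G (0.09) were not called. SEMA7A, which is lipid-anchored and binds PLXNC1, rose (log2 fold change 1.07).

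Among the semaphorin receptors the neuropilins rose in each PCGF6-KO library. NRP1 (chromosome 10, 33177492 to 33336262 on GRCh38), a co-receptor for SEMA3A and for VEGF, had 1.97 and 1.74 CPM in the WT libraries, 16.3 and 16.4 in those of clone 1 and 35.8 and 32.5 in those of clone 2 (log2 fold change 3.76, standard error 0.45, edgeR adjusted p = 0.000233). NRP2, a co-receptor for SEMA3F, had 44.2 and 46.9 CPM in the WT libraries, 131 and 133 in those of clone 1 and 218 and 215 in those of clone 2 (log2 fold change 1.94, standard error 0.24, edgeR adjusted p = 0.000299). Both were lowest in WT and highest in clone 2. NRP2 was the more abundant per length, with 14.1 to 15.0 TPM in WT and 41.0 to 64.3 in PCGF6-KO, against 0.672 to 0.757 and 6.13 to 12.7 TPM for NRP1.

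Of the plexins, the signalling receptors for semaphorins, 4 of 9 were called. PLXNA2 had 2.95 and 2.52 CPM in the WT libraries, 14.0 and 14.0 in those of clone 1 and 28.9 and 24.2 in those of clone 2 (log2 fold change 2.89, standard error 0.37, edgeR adjusted p = 0.000367). PLXND1, the receptor for SEMA3E, had 58.6 and 55.3 CPM in the WT libraries, 261 and 249.9 in those of clone 1 and 346 and 323 in those of clone 2 (log2 fold change 2.37, standard error 0.15, edgeR adjusted p = 4.5e-06). Both rose in every PCGF6-KO library. PLXNA4, which like PLXNA2 binds SEMA6A, fell, with 9.83 and 12.7 CPM in the WT libraries, 4.13 and 3.91 in those of clone 1 and 3.81 and 4.05 in those of clone 2 (log2 fold change −1.5, standard error 0.16, edgeR adjusted p = 0.000106). PLXNC1, the SEMA7A receptor, had 3.68 and 3.66 CPM in the WT libraries, 4.92 and 5.34 in those of clone 1 and 6.23 and 6.86 in those of clone 2 (log2 fold change 0.67, standard error 0.20, edgeR adjusted p = 0.0271). The call of PLXNC1 was lost without WT replicate 1 (adjusted p = 0.137), WT replicate 2 (0.139), clone 2 replicate 1 (0.0548) or clone 2 replicate 2 (0.0546). The more abundant PLXNA1 and PLXNB2 were not called, with log2 fold changes of −0.04 and −0.12. PLXNB1 (−0.57, edgeR adjusted p = 0.000246) and PLXNA3 (0.33, edgeR adjusted p = 0.0143) passed on p and stayed under the fold threshold. PLXND1 made up 7.66 to 8.38% of the summed plexin TPM in WT and 29.0 to 38.3% in PCGF6-KO, where it was the leading plexin.

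**Figure D3:**
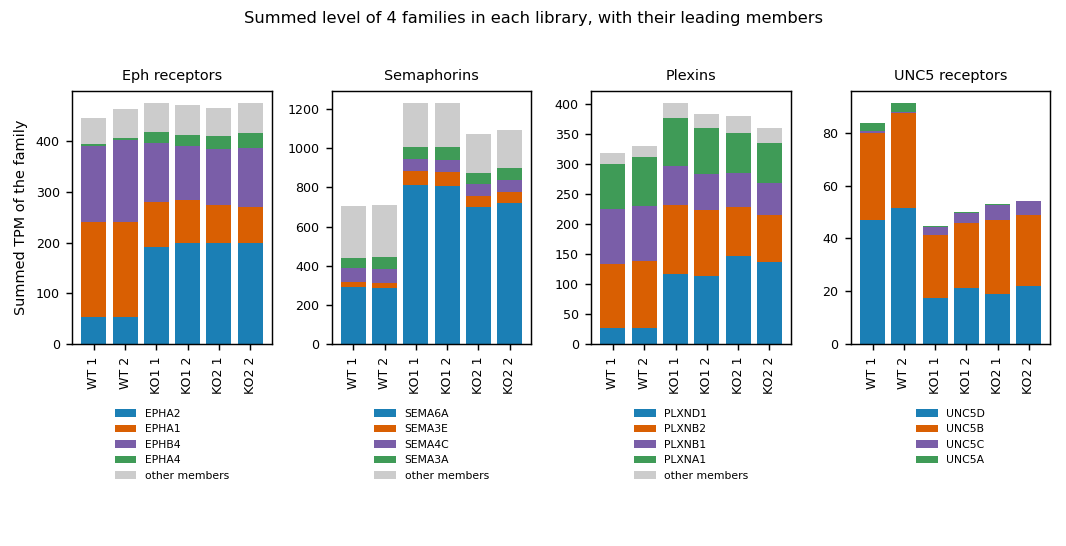
Summed TPM of the Eph receptors, semaphorins, plexins and UNC5 receptors in each of the 6 libraries, stacked by the 4 members that reach the highest TPM, with the rest in grey. EPHA2 and PLXND1 take larger shares in PCGF6-KO than in WT, SEMA6A grows with the semaphorin total, and the UNC5 total is lower in PCGF6-KO.

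SLIT2 and SLIT3 rose, and none of their Robo receptors was called in PCGF6-KO as a whole. SLIT2 (chromosome 4, 20251905 to 20620561 on GRCh38) had 23.9 and 24.7 CPM in the WT libraries, 147 and 157 in those of clone 1 and 129 and 135 in those of clone 2 (log2 fold change 2.55, standard error 0.10, edgeR adjusted p = 3.8e-07). SLIT3 had 0.798 and 0.719 CPM in the WT libraries, 3.35 and 3.52 in those of clone 1 and 8.44 and 5.86 in those of clone 2 (log2 fold change 2.79, standard error 0.48, edgeR adjusted p = 0.00193). SLIT2 was the leading Slit by TPM in all 6 libraries, at 10.9 to 11.4 TPM in WT and 54.5 to 71.0 TPM in PCGF6-KO, and SLIT1 was not called (log2 fold change −0.53, edgeR adjusted p = 0.218). ROBO1 (log2 fold change −0.54, edgeR adjusted p = 0.000141) and ROBO2 (0.54, edgeR adjusted p = 0.0279) passed on p and stayed under the fold threshold, the first toward lower and the second toward higher levels. ROBO2 was called without clone 1 replicate 1, at a log2 fold change of 0.64. ROBO3, a receptor of commissural axons, was not called (0.17), and ROBO4, the endothelial member, had at most 6 counts.

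Netrin 1 rose, and the UNC5 receptors, which turn its attraction into repulsion, moved apart. NTN1 (chromosome 17, 9021510 to 9244000 on GRCh38) had 1.90 and 2.40 CPM in the WT libraries, 11.2 and 13.8 in those of clone 1 and 16.1 and 13.8 in those of clone 2 (log2 fold change 2.67, standard error 0.21, edgeR adjusted p = 1.6e-05). NTN4, a netrin of basement membranes, was not called (log2 fold change 0.63, edgeR adjusted p = 0.211). NTN3 had at most 5 counts and NTN5 at most 8, and NTN5 had 0 counts in both clone 2 libraries. UNC5A (chromosome 5, 176810519 to 176880898 on GRCh38) had 50 and 54 counts in the WT libraries, 5 and 5 in those of clone 1 and 5 and 1 in those of clone 2 (log2 fold change −3.78, standard error 0.37, edgeR adjusted p = 7.0e-05). This was the largest decrease among the members in PCGF6-KO as a whole and in each clone, and no PCGF6-KO library had more than 5 counts. UNC5D, the leading UNC5 receptor in WT, had 115 and 125 CPM in the WT libraries, 43.6 and 51.7 in those of clone 1 and 49.9 and 57.2 in those of clone 2 (log2 fold change −1.24, standard error 0.10, edgeR adjusted p = 2.0e-05). UNC5C rose from a low level, with 2.27 and 1.44 CPM in the WT libraries, 7.90 and 9.79 in those of clone 1 and 14.3 and 13.5 in those of clone 2 (log2 fold change 2.61, standard error 0.32, edgeR adjusted p = 0.000280). UNC5B, which is known from blood vessels, was not called (log2 fold change −0.33, edgeR adjusted p = 0.0388) and became the leading UNC5 receptor by TPM in all 4 PCGF6-KO libraries. The family summed to 84 to 91.4 TPM in WT and 44.6 to 54.2 TPM in PCGF6-KO.

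Other genes of axon guidance, a list of 48 co-receptors, ligands and intracellular effectors, are given beside the members. Of 46 tested, 7 were called higher and 6 lower, where 23.6% of all genes were called, with a median log2 fold change of −0.07. Among its 11 tested genes of the netrin pathway, the repulsive guidance molecules and the FLRT proteins, 5 were called higher and 1 lower, where 14.9% of all genes were called higher. FLRT3 (log2 fold change 3.51) and FLRT2 (3.28), membrane proteins that bind UNC5 receptors, rose while FLRT1 (−2.31) fell. FLRT3 had 27 and 33 counts in the WT libraries, 257 and 285 in those of clone 1 and 460 and 459 in those of clone 2. NTNG1, a lipid-anchored netrin relative (2.16), RGMB, a ligand of neogenin (2.04), and DSCAM, a netrin receptor (1.74), rose too. DCC, the attractive netrin receptor, is named for that role although it was not called, with its values known. It had 46 and 48 counts in the WT libraries, 41 and 50 in those of clone 1 and 48 and 56 in those of clone 2 (log2 fold change −0.05, edgeR adjusted p = 0.888). The chemokine receptor gene CXCR4 rose (3.49), and the axonal adhesion genes CNTN2 (−3.62) and CNTN1 (−2.02) fell. Among the 27 signalling genes, MICAL2 (1.95), an actin-oxidizing enzyme, rose, and those that fell included VAV3 (−1.53) and SRGAP3 (−0.78), which encodes a Slit-Robo effector. CXCR4 and FLRT3 are also known from mesendoderm, whose markers rose in the same libraries, and the part of such cells in these changes was not tested.

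Compared one by one with WT, which both comparisons share, clone 1 had 25 members higher and 14 lower, and clone 2 had 28 higher and 17 lower. Of all tested genes, 16% were called higher and 8.8% lower in clone 1, or 24.8% in all, and 16.9% higher and 12.5% lower in clone 2, or 29.4% in all, against 60.9 and 70.3% of the tested members. For SEMA3C the log2 fold change was 3.76 in clone 1 and 4.04 in clone 2, for EPHA2 1.92 and 2.03, for SLIT2 2.64 and 2.44, and for UNC5A −3.52 and −4.12. Called in clone 2 and not in clone 1 were PLXNC1, ROBO2, NTN4 and SEMA5A, which were higher, and SLIT1, PLXNB1 and PLXNB3, which were lower, and EFNA2 was called higher in clone 1 alone. Of these 8, SEMA5A and PLXNB3 also differed between the clones in the direct test. ROBO2 had log2 fold changes of 0.34 in clone 1 and 0.72 in clone 2, and SLIT1 of −0.24 and −0.91. Tested directly against each other, the clones differed at 10 members, 8 higher and 2 lower in clone 2, or 15.6% of the tested members, where 7.87% of all tested genes were called, 3.73% higher and 4.14% lower. NRP1 differed by 1.06 on the log2 scale (edgeR adjusted p = 1.8e-08), NRP2 by 0.71 (2.8e-09), PLXNA2 by 0.92 (1.2e-06), SLIT3 by 1.06 (0.000404) and UNC5C by 0.66 (0.00217). For these 5 genes and EFNA1, clone 2 lay farther from WT than clone 1, and SEMA6D did so too, with a log2 fold change of 0.66 in clone 1 and 1.67 in clone 2. SEMA5A had 3.07 and 3.48 CPM in the WT libraries, 3.87 and 3.63 in those of clone 1 and 5.24 and 7.11 in those of clone 2, so that the increase stood in clone 2 (log2 fold change 0.91) and clone 1 did not pass the test (0.20). SEMA4F had 4.91 and 4.37 CPM in the WT libraries, 5.54 and 4.79 in those of clone 1 and 2.65 and 3.61 in those of clone 2, and PLXNB3, a plexin that binds SEMA5A, had 33 and 27 counts in the WT libraries, 20 and 30 in those of clone 1 and 14 and 5 in those of clone 2. Both were lower in clone 2 than in clone 1 (log2 differences −0.73 and −1.27). Of the exonic bases of PLXNB3, 20.4% also belong to another gene, so its reads could be shared. In the same comparison 5 of 9 tested mesendoderm, 3 of 8 neural crest, 2 of 8 fibroblast and 2 of 8 endothelial markers were higher in clone 2 with 0 lower in these lists, 1 of 10 pluripotency markers (SOX2) and 1 of 8 tested neural markers (ELAVL4) were lower, and PCGF6 was higher by 0.90 on the log2 scale, and their part in these differences was not tested.

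Of the 10 calls between the clones, 5 were lost in at least 1 other setting. DESeq2 called 6 of the 10, all higher in clone 2, and gave an adjusted p of 0.134 for EFNA1, 0.132 for SEMA5A, 0.150 for SEMA4F and 0.227 for PLXNB3. EFNA1 lost its call without clone 1 replicate 2 (edgeR adjusted p = 0.0896) or clone 2 replicate 1 (0.12), SEMA5A without clone 2 replicate 2 (0.202), and SEMA4F without clone 1 replicate 1 (0.0962) or clone 2 replicate 1 (0.187). PLXNB3 lost it without clone 1 replicate 2 (edgeR adjusted p = 0.298) or clone 2 replicate 2 (0.337), and UNC5C fell to a log2 difference of 0.51 without clone 1 replicate 1. NRP1, NRP2, PLXNA2, SEMA6D and SLIT3 kept their calls in every setting run.

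**Figure D4:**
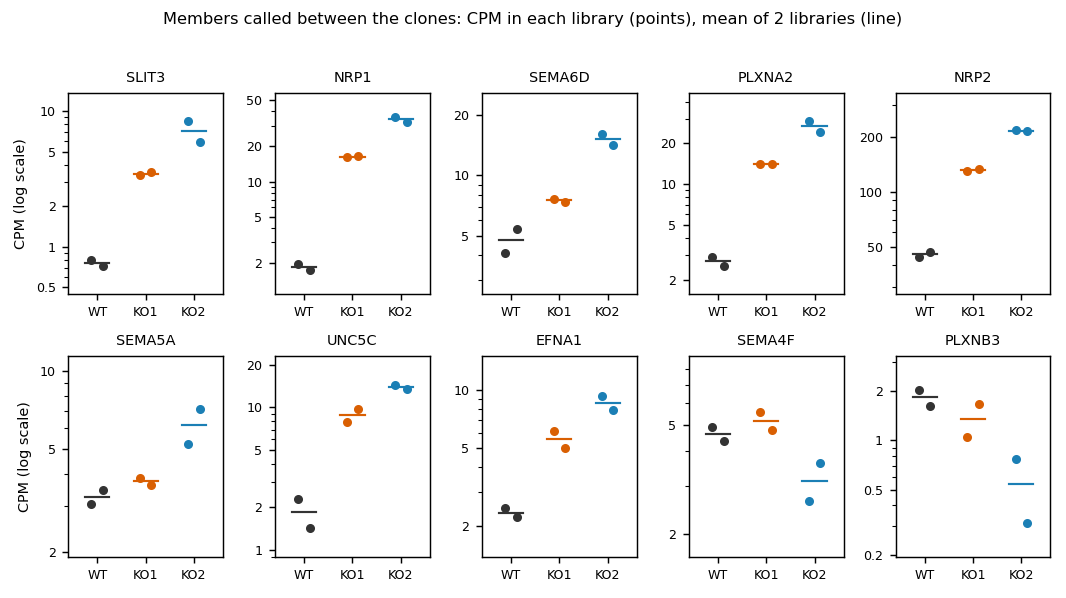
CPM (log scale) of the 10 members called between the clones, in WT, PCGF6-KO clone 1 (KO1) and PCGF6-KO clone 2 (KO2), with libraries as points and their mean as a line. In the first 8 panels clone 2 lies above clone 1, and for SEMA4F and PLXNB3 below it.

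Promoter windows of RefSeq (GRCh38.p14, 250 bases before to 50 after each annotated start) were found for 58 of the 68 members. The windows of the members held a median of 28 CG dinucleotides, counted in the richest window of each gene, against 16 over the 27305 genes with a window. These sets are not alike, since the 27305 include genes not tested here. The richest window also depends on how many a gene has, and there were 90 windows for the 58 members and 35116 for all genes. The median was 29.5 for members called higher, 32 for those called lower and 27.5 for those not called. The motifs of factors tied to PCGF6 or to WNT signalling were searched on both strands. The E-box CACGTG, read by the PRC1.6 subunit MAX and by MYC, was in 4 of 58 members (6.9%) and in 8.77% of all genes with a window. GCGGGAA, read by the PRC1.6 subunit E2F6, was in 4 members (6.9%) and 7.82% of all genes. Of these 4 members 2 were called higher, 0 lower and 2 were not called. CTTTGAT, read by TCF and LEF factors, was in 3 members (5.17%) and 3.18% of all genes, with 1 higher, 1 lower and 1 not called. SEMA6D was the member with more than 1 of the motifs, and no match of a member overlapped another. A match is a description of the letters and not a bound site.

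The 4 members with an E-box were all called, SEMA3E and SEMA6D higher and EPHA8 and SEMA4D lower. Of the 58 members with a window, 22 were called higher, 11 lower, 22 not called and 3 not tested. The calls of SEMA6D and EPHA8 were lost in some of the fits that left out a library. The 4 are shown because the same letters stand before starts of genes that moved in opposite directions. The start of SEMA4D shown lies inside the gene, which begins farther upstream in GENCODE. SEMA6D also had windows at chr15:47717255-47717554 and chr15:47718239-47718538, and SEMA3E at chr7:83641382-83641681, which held none of the motifs. Which start the cells used was not tested. Each stretch is 100 bases upstream of the annotated start on the strand of the gene, 5′ to 3′, outside annotated exons, with the E-box in capitals. SEMA3E lies at chr7:83649140-83649239 on the reverse strand, SEMA6D at chr15:47183989-47184088 on the forward strand, EPHA8 at chr1:22563266-22563365 on the forward strand and SEMA4D at chr9:89495657-89495756 on the reverse strand.
SEMA3E: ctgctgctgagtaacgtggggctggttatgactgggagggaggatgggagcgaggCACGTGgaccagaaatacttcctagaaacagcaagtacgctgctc
SEMA6D: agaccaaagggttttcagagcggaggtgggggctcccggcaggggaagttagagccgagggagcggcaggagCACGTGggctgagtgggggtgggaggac
EPHA8: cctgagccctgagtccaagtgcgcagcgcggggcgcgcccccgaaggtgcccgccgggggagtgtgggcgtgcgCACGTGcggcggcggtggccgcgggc
SEMA4D: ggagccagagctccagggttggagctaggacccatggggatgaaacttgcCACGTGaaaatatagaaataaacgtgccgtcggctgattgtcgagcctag
The E-box starts 45 bases before the annotated start in SEMA3E, 28 in SEMA6D, 149 in EPHA8 and 50 in SEMA4D. The TCF/LEF letters were also found on both sides of the comparison, before SEMA6D, which rose, and before a start inside SEMA3F, which fell, and are shown in capitals, for SEMA6D as the reverse complement ATCAAAG. The SEMA6D stretch lies at chr15:47183841-47183940 on the forward strand and the SEMA3F stretch at chr3:50158919-50159018 on the forward strand.
SEMA6D: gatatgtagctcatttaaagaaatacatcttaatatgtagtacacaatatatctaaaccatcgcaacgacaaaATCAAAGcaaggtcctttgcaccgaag
SEMA3F: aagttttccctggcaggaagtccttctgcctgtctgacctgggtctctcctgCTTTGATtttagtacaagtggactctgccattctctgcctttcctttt
They start 175 bases before the start in SEMA6D and 48 in SEMA3F.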

How the data were processed

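The authors deposited raw counts per gene for the 6 RNA-seq libraries, and their ChIP-seq libraries were not analysed here. Per the labels and the study's methods, reads were trimmed with Trim Galore 0.6.2, aligned to GRCh38 with HISAT2 2.1.0 and counted per gene with featureCounts. Which annotation release and strand setting were used, and how reads that map to several places were treated, is not given in the sources used here, so counts of overlapping genes may be shared. The deposited gene lengths were used for TPM.

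Counts were fitted in edgeR 4.0.16 (R 4.3.3) with TMM scaling, filterByExpr and the quasi-likelihood test, 2-sided, with Benjamini-Hochberg adjustment over all 17672 genes tested. PCGF6-KO was compared with WT as 2 genotypes, and the clones in 1 fit with 3 groups. Calls needed an adjusted p under 0.05 together with a log2 fold change past 0.6 in either direction. The fit was tested on simulated data in which libraries varied independently and every gene had the same spread. Such data do not show how calls hold for libraries that come from 2 clones. DESeq2 1.42.0, other scalings, no filter, a replicate block and leaving out each library served as alternatives. Values per library are given for at most 4 called members in each family, for members called between the clones and for the 5 with the highest TPM in WT, and other guidance genes are named where called, except 1 that is not reported here. Positions and overlaps are from GENCODE 44. The members and lists were chosen with earlier results of these data known.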

Additional observations from a re-analysis of the deposited data

Results flagged for a closer look

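Of the 64 tested members, 3 had a PCGF6-KO library that stood apart from the other three by Dixon's ratio, the gap to the nearest library divided by the range of the 4. The ratio was 0.923 for EPHB3, where clone 2 replicate 2 was high, 0.876 for SEMA3B, where clone 2 replicate 1 was high, and 0.933 for UNC5A, where clone 2 replicate 2 was low at 1 count. Chance flags about 1 in 20 such groups, and all 3 genes kept their calls when each library in turn was left out.

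Between the clones, edgeR's contrast of clone 2 against clone 1 differed at 10 members, 15.6% of those tested, against 7.87% of all tested genes. DESeq2 did not call EFNA1, SEMA5A, SEMA4F and PLXNB3, and some calls were lost when a library was left out. The log2 difference was 1.06 for NRP1, 1.06 for SLIT3, 1.01 for SEMA6D, 0.92 for PLXNA2, 0.71 for NRP2, 0.71 for SEMA5A, 0.66 for UNC5C and 0.63 for EFNA1. It was −0.73 for SEMA4F and −1.27 for PLXNB3.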

How the results depend on the processing

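The count of members called in PCGF6-KO against WT stayed between 35 and 40 of 64 when each library in turn was left out, with 35 without either WT library, and was 38 to 40 under RLE and upper-quartile scaling, DESeq2, no filter, the replicate block and the mean of the clones, and 45 by adjusted p alone. Leaving out libraries gave 35 to 39 for clone 1 against WT, 43 to 47 for clone 2 against WT and 8 to 10 for clone 2 against clone 1. Between the clones DESeq2 called 6 members and adjusted p alone 24, the second because the fold threshold was dropped. Of all tested genes in PCGF6-KO against WT, 23.6% were called under RLE and 23.8% under upper-quartile scaling. The share was 21.9% with the replicate block, 27.5% for the mean of the clones and 37.1% by adjusted p alone. It was 22.3 to 24.5% when each PCGF6-KO library in turn was left out. DESeq2 (11.6%) and the fit with no filter (13.3%) covered 34055 genes, so their shares have another base. The replicate numbers did not pair the samples, since deviations of same-numbered libraries correlated at 0.02 (WT and clone 1), 0.04 (WT and clone 2) and 0.13 (both clones) over 15104 genes. With the replicate number as a block 38 members were called, 24 higher and 14 lower, and SEMA6D lost its call (log2 fold change 1.25, edgeR adjusted p = 0.0529). The block changed no other call of a member in PCGF6-KO against WT.

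Under these settings no member reversed, and PLXNB3 was called by the mean of the clones (log2 fold change −1.07, edgeR adjusted p = 0.00920). With each library left out in turn, 6 members that were not called changed sign. Their log2 fold changes ran from −0.0916 to 0.0160 for PLXNA1, −0.0244 to 0.224 for SEMA3D, −0.143 to 0.280 for SEMA3G, −0.0207 to 0.0914 for SEMA4A, −0.326 to 0.0152 for SEMA4F and −0.00239 to 0.157 for SEMA4G. EPHA8, EPHA10, PLXNC1 and SEMA6D lost their calls, and PLXNB3 (−1.31 without clone 1 replicate 2) and ROBO2 gained one. Upper-quartile scaling moved the median of all genes to −0.03. Among all genes, 3120 and 3041 were called without the first and the second WT library, against 4167. With 2 WT libraries and replicates whose cultures are unknown, the spread of the unedited line is poorly known, and each clone stands for 1 edited cell. The cause of each change of call was not tested.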
